A study of Mus musculus with 6 samples.

Results

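The 8 core clock genes Arntl, Clock, Npas2, Per1, Per2, Per3, Cry1 and Cry2 were followed in regulatory T cells (Tregs) of the inflamed mouse colon. They were taken by symbol from a table of 24537 genes, in which each had 1 row. All 8 passed the filter of at least 1 TPM (transcript abundance scaled for length and library size) in at least 3 of the 6 libraries. Of the whole table, 13211 genes passed and were tested.

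The libraries were 3 labelled REV-ERB KO (knockout) and 3 labelled REV-ERB WT (wild type). All came from colon Tregs of mice with TNBS colitis. TNBS is a hapten that provokes T cell inflammation of the gut, and both groups received it, 150 µl at 1% on the skin and, 7 days later, 100 µl at 2.5% into the rectum. The sources used here do not give strain, age, sex, the Cre driver or deleted exons if any, the number of animals per library or the clock time at which tissue was taken. REV-ERB could be Nr1d1, Nr1d2 or both, since the sample labels name no gene.

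The mammalian clock is a loop of transcription. BMAL1, the protein of Arntl, pairs with CLOCK or its paralog NPAS2, and the pair binds E-box sequences and activates Per and Cry genes and Nr1d1. PER and CRY proteins then enter the nucleus and repress that pair. In a linked loop the REV-ERB receptors compete with the ROR receptors for AGGTCA-type elements and repress Arntl, and in liver also Npas2, Clock and Cry1. These transcripts cycle over the day, and the part of the hour of collection in the values was not tested.

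Npas2 was the only one of the 8 genes whose values did not overlap between the groups, with a mean in the KO-labelled libraries 1.93 times that in the WT-labelled ones. Of all tested genes 21% did not overlap, so 1 of 8 is no excess over the background. Arntl and Per1 stood lower in the KO-labelled libraries by less than 0.25 on the log2 scale, with 1 library of each group within the range of the other. Per2, Per3, Cry1, Cry2 and Clock also overlapped. None of the 8 passed limma or voom at an adjusted p of 0.05, and neither did any of the 13211 genes tested (0% called by either). At an unadjusted p of 0.05, 1 of the 8 passed in limma and 1 in voom, both times Npas2, where 15.6% of all genes passed in limma and 16.5% in voom.

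The libraries held 12641850 to 15890630 recovered reads in the KO-labelled ones and 9794480 to 12122575 in the WT-labelled ones. Library KO 3 stood apart from its group by the chi-square per gene of recovered reads, a measure that grows with depth. KO 3 gave 43.3 against KO 1 and 41.9 against KO 2, and 23.6, 42.6 and 29.1 against WT 1, WT 2 and WT 3. Against WT 1, the library with the fewest reads, KO 1 gave 24.0 and KO 2 gave 27.1. Against WT 2 and WT 3, KO 1 gave 52.2 and 40.7, and KO 2 gave 62.2 and 42.5. KO 1 and KO 2 differed by 17.2 and the WT-labelled libraries by 11.2 to 19.2. Without KO 3 the difference, labelled KO minus labelled WT on the log2(TPM + 1) scale, was 0.79 for Npas2, -0.14 for Arntl, -0.07 for Clock, -0.18 for Per1, 0.49 for Per2, 0.24 for Per3, 0.08 for Cry1 and -0.02 for Cry2, and 0 members passed. Nr1d1, the gene of REV-ERBα, was measured at 169.2, 154.3 and 141.4 TPM in the KO-labelled libraries. It was lower in the WT-labelled ones, at 66.3, 104.0 and 88.2 TPM. The labels do not say which REV-ERB gene was removed. A whole-transcript value does not show whether a coding exon is missing, and directions here follow the labels. Foxp3, which defines Tregs, lay between 171.4 and 235.0 TPM in the KO-labelled libraries and between 451.4 and 663.7 TPM in the WT-labelled ones. The 9 Treg and T cell markers summed to 4278 to 4857 TPM in KO-labelled libraries and 5574 to 6050 TPM in WT-labelled ones. None was at 0. Of the 9, 8 were below 0 in their difference and Tnfrsf18 was above. With the epithelial covariate described below, 5 were below 0 and 4 above. All 17 epithelial markers were above 0 in their difference, with sums of 3643 to 6834 TPM in the KO-labelled libraries and 2303 to 3451 TPM in the WT-labelled ones, and none of them was at 0. Macrophage and monocyte markers summed to 870.7 to 1581 TPM in KO-labelled libraries and 828.5 to 1328 TPM in WT-labelled ones. Their differences were above 0 in 8 of 8, with overlapping groups in each, and below 0 in 8 of 8 with that covariate. Fibroblast and smooth muscle markers summed to 248.2 to 474.8 TPM in KO-labelled libraries and 190.3 to 452.2 TPM in WT-labelled ones. Of these, 6 of 6 were above 0, or 4 above and 2 below with that covariate. B cell markers summed to at most 52.1 TPM in a KO-labelled library and 46.2 TPM in a WT-labelled one, CD8 T and NK markers to at most 11.2 TPM in a KO-labelled and 15.3 TPM in a WT-labelled library, and neutrophil markers to at most 36.7 TPM in a KO-labelled and 3.81 TPM in a WT-labelled library. Haemoglobin rows were at 0 in all 3 KO-labelled libraries and summed to 10.8 to 64.1 TPM in the WT-labelled ones. The beta-globin rows overlap in position and each held 21, 104 and 50 reads in WT 1, WT 2 and WT 3. The alpha-globin rows likewise each held 1, 46 and 32 reads, so the sum can count a read more than once. The part of these other cells in the clock values was not tested, and a fit with an epithelial covariate is given below. In bulk samples fewer cells of a type and less RNA per cell cannot be told apart.

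**Figure D1:**
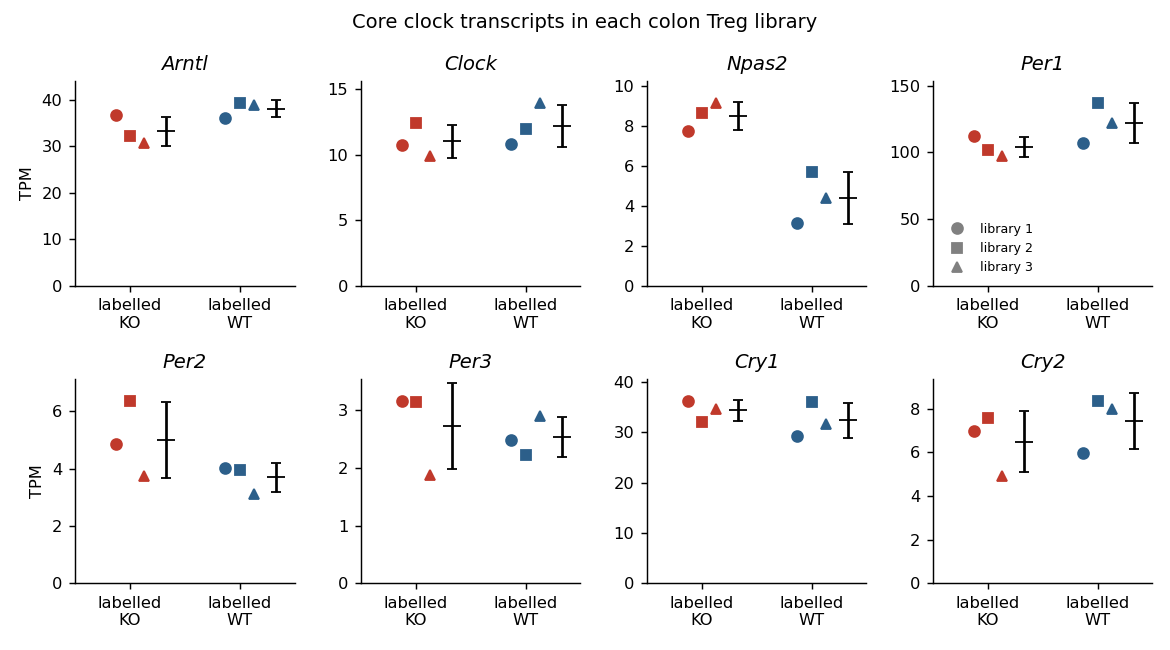
TPM of each core clock gene in each library, KO-labelled libraries in red and left, WT-labelled libraries in blue and right; the black mark and bar are the mean ± SD of 3 libraries. Npas2 is the one panel in which every KO-labelled library (7.76 to 9.17 TPM) lies above every WT-labelled library (3.13 to 5.72 TPM).

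The order of the levels was led by Per1, a transcript that cells also induce quickly in response to hormones and stress. Per1 averaged 103.8 ± 7.70 TPM in the KO-labelled libraries and 121.8 ± 14.9 TPM in the WT-labelled ones (SD, n = 3 each, as for all means below). In both groups it lay above every other member with no overlap, at the 91.2 percentile of tested genes in the KO-labelled libraries and the 92.9 percentile in the WT-labelled ones. Cry1 and Arntl came next and overlapped each other in both groups. Clock followed at 11.0 ± 1.26 TPM in the KO-labelled libraries and 12.2 ± 1.60 TPM in the WT-labelled ones. Below it the order differed between the groups. In the KO-labelled libraries, Npas2 was next and did not overlap Cry2 below it, while Cry2 overlapped Per2. In the WT-labelled ones, Cry2 was next and did not overlap Npas2 below it, while Npas2 overlapped Per2. Per3 was lowest in both groups, at 2.72 ± 0.739 TPM in the KO-labelled libraries and 2.54 ± 0.340 TPM in the WT-labelled ones.

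Among the activators, Npas2 encodes the basic helix-loop-helix PAS protein that can take the place of CLOCK beside BMAL1. Npas2 (NM_008719, mm10 chr1:39194272-39363240, plus strand, 21 exons) was measured at 7.76, 8.65 and 9.17 TPM in the KO-labelled libraries 1, 2 and 3, against 3.13, 5.72 and 4.40 TPM in the WT-labelled libraries 1, 2 and 3. These values rest on 273, 334 and 402 reads in the KO-labelled libraries and 85, 184 and 137 reads in the WT-labelled ones. The lowest KO-labelled library was above the highest WT-labelled library, which 10.6% of all tested genes also showed in this direction, and 10.4% in the other. The difference was 0.84 on the log2(TPM + 1) scale (SE 0.223, 95% interval 0.32 to 1.36, limma adjusted p = 0.1901). The exact two-sided permutation p was 0.1, the smallest that 3 against 3 libraries can give. On the recovered reads voom gave 0.98 (adjusted p = 0.111), and over the 15 other settings the difference ran from 0.53 to 1.18 with adjusted p between 0.111 and 0.9462. Of all genes tested, 3.01% had a smaller p and 2.72% a larger difference. The coefficient of variation was 8.31% in the KO-labelled libraries and 29.4% in the WT-labelled ones. Counting reads alone would give 5.50% in the KO-labelled libraries and 8.92% in the WT-labelled ones.

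The 250 bases before the Npas2 start are shown because it was the member with the largest difference. Against the AGGTCA half-site of REV-ERB and ROR, the E-box CACGTG, the D-box TTANGTAA of the DBP and NFIL3 families and the cyclic AMP element TGACGTCA, each read on both strands, no match lay in its 300-base window from 250 bases before to 50 after the start. Only these exact letters in this window were searched, so an element elsewhere or with other letters was not looked for. The sequences here and below are from RefSeq, build GRCm38.p6, the assembly that mm10 names, written 5′ to 3′ on the gene's strand.
Npas2, chr1:39194022-39194271, plus strand: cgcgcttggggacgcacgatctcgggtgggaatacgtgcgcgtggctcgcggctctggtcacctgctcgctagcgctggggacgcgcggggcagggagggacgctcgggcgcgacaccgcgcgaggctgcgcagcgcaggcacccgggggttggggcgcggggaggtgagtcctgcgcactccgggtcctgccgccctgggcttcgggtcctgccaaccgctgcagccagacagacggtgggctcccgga

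Arntl encodes BMAL1, the partner without which neither CLOCK nor NPAS2 works in the clock, and is the classical gene repressed by REV-ERB. Arntl (NM_007489, mm10 chr7:113207465-113314126, plus strand, 20 exons) was measured at 36.7, 32.3 and 30.6 TPM in the KO-labelled libraries and at 36.1, 39.3 and 38.9 TPM in the WT-labelled ones. Libraries KO 2 and KO 3 lay below all the WT-labelled ones, and KO 1 lay between WT 1 and WT 3. The difference was -0.20 (SE 0.114, 95% interval -0.46 to 0.07, limma adjusted p = 0.4389). In this fit the upper bound of 0.07 lies below a doubling, which would be near 1 on this scale. The SE was 0.182 with the epithelial covariate described below, and release from REV-ERB repression was not tested. The difference kept its sign in all 15 other settings, between -0.27 and -0.14. Its exons share 33 bases with Gm45355 on the opposite strand. Counting reads alone would give a coefficient of variation of 3.34% in the KO-labelled libraries, whose spread was 9.45%, and of 3.55% in the WT-labelled ones, whose spread was 4.58%.

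The AGGTCA element of Arntl is shown as the textbook place of REV-ERB action. It began at position 31 after the later of the gene's annotated starts, with the start base as 0, and the windows of both starts together held no E-box, D-box or cyclic AMP element. The half-site occurs in 16.3% of the 32851 windows of all genes, and a match is a description of the letters only. The capitals mark AGGTCA.
Arntl, chr7:113207530-113207559, plus strand: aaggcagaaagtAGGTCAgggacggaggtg

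Clock encodes the other partner of BMAL1, a histone acetyltransferase. Clock (NM_001289826, mm10 chr5:76209868-76304792, minus strand, 23 exons) was measured at 10.8, 12.4 and 9.93 TPM in the KO-labelled libraries and at 10.8, 11.9 and 13.9 TPM in the WT-labelled ones. KO 1 and KO 3 lay below the WT range, KO 1 at 10.77 TPM beside 10.78 TPM in WT 1, and KO 2 lay inside it. The difference was -0.13 (SE 0.165, 95% interval -0.52 to 0.25, limma adjusted p = 0.7219). Of its 3 annotated start windows, 1 held an AGGTCA half-site.

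The share of Npas2 among the partners of BMAL1 follows from the values above. Npas2 was 41.9%, 41.1% and 48.0% of the Clock and Npas2 TPM together in the KO-labelled libraries, against 22.5%, 32.4% and 24.0% in the WT-labelled ones. The 2 ranges did not overlap, and TPM being per length, the shares compare transcript numbers. The sum of both partners was 18.5 to 21.1 TPM in the KO-labelled libraries and 13.9 to 18.3 TPM in the WT-labelled ones. Arntl stood at 1.98, 1.53 and 1.60 times that sum in the KO-labelled libraries and 2.60, 2.23 and 2.12 times in the WT-labelled ones. These are descriptions with no test, chosen after the values of the members were known. Of the 14 sums, shares and ratios that were computed, 8 did not overlap between the groups. Most of those 8 contain Npas2 and so repeat its separation in part, and no background share was computed for them.

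**Figure D2:**
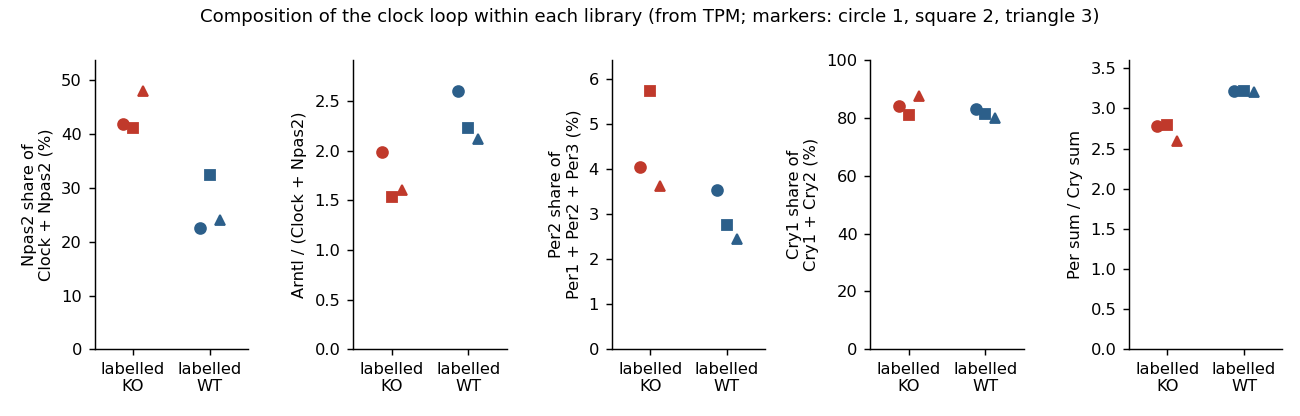
Shares and ratios within each library, computed from TPM, with KO-labelled libraries in red and left and WT-labelled libraries in blue and right; all axes start at 0. The Npas2 share runs from 41.1% to 48.0% in the KO-labelled libraries and from 22.5% to 32.4% in the WT-labelled ones, whereas the Cry1 shares overlap.

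Among the repressors, the PER proteins bring CRY to the nucleus and set the pace of the loop. Per1 (NM_001159367, mm10 chr11:69100158-69109957, plus strand, 23 exons) was measured at 112.3, 101.5 and 97.4 TPM in the KO-labelled libraries and at 107.0, 136.9 and 121.5 TPM in the WT-labelled ones. KO 2 and KO 3 lay below every WT-labelled library, and KO 1 was above WT 1 only. The difference was -0.22 (SE 0.118, 95% interval -0.50 to 0.05, limma adjusted p = 0.3951), from -0.31 to -0.10 over the 15 other settings. With at least 3234 reads in each library, the counting error was 1.49% beside a spread of 7.42% in the KO-labelled libraries and 1.58% beside 12.3% in the WT-labelled ones, so depth did not limit this value.

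Per2, which carries much of the repression in the animal's own clock, was measured at 4.86, 6.38 and 3.73 TPM in the KO-labelled libraries and at 4.03, 3.96 and 3.12 TPM in the WT-labelled ones (NM_011066, mm10 chr1:91415982-91459328, minus strand). KO 1 and KO 2 lay above every WT-labelled library, and KO 3 lay inside their range. The difference was 0.33 (SE 0.232, 95% interval -0.21 to 0.87, limma adjusted p = 0.5213). It was 0.17 without KO 2, the library with the highest epithelial score, 0.49 without KO 3 and 0.01 with that score as a covariate. The score and the label cannot be told apart, and the part of epithelial RNA in Per2 was not tested. Per2 was 3.62% to 5.74% of the Per TPM in the KO-labelled libraries and 2.45% to 3.54% in the WT-labelled ones.

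Per3, whose loss has little effect on rhythm in mice, was measured at 3.17, 3.14 and 1.87 TPM in the KO-labelled libraries and at 2.48, 2.23 and 2.90 TPM in the WT-labelled ones (NM_001289877, mm10 chr4:151003655-151044665, minus strand). KO 1 and KO 2 were above, and KO 3 below, all WT-labelled libraries. The difference of 0.06 (SE 0.243, 95% interval -0.50 to 0.62, limma adjusted p = 0.9244) had no stable sign, and turned to -0.03 without KO 1. Its 118 to 174 reads (KO-labelled) and 97 to 130 reads (WT-labelled) gave the largest counting error of the 8 in each group. The lowest single count was 85 reads, for Npas2 in WT 1.

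The Per promoters that held a searched element are shown to set the E-box arm of the loop beside the D-box arm. In Per1 an E-box began at position -166 and an AGGTCA half-site, on the opposite strand, at position -137 from the upstream of its 2 annotated starts. The window of the other start, the one beside the measured transcript, held none of the 4 elements. In Per3 a D-box began at position -205 and another at position -158. Of all windows, 7.15% held the E-box and 2.32% the D-box. The capitals mark these elements.
Per1, chr11:69098768-69098832, plus strand: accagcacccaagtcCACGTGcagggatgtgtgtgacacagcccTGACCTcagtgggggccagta
Per3, chr4:151044801-151044885, minus strand: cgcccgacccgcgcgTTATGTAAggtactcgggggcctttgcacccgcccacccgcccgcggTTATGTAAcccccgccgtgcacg

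Cry1 encodes the stronger of the cryptochrome repressors. Cry1 (NM_007771, mm10 chr10:85131700-85185054, minus strand, 13 exons) was measured at 36.3, 32.1 and 34.7 TPM in the KO-labelled libraries and at 29.2, 36.1 and 31.7 TPM in the WT-labelled ones. KO 2 and KO 3 lay inside the WT range and KO 1 was just above WT 2. The difference was 0.09 (SE 0.121, 95% interval -0.19 to 0.37, limma adjusted p = 0.758), and the interval leaves room for neither a doubling nor a halving. The E-box of its promoter is shown in capitals as the site through which the loop closes on a repressor; it began at position -60.
Cry1, chr10:85185094-85185129, minus strand: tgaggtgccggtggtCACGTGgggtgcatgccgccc

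Cry2, the paralog that opposes Cry1 in setting the period in mice, was measured at 6.97, 7.56 and 4.92 TPM in the KO-labelled libraries and at 5.98, 8.37 and 7.96 TPM in the WT-labelled ones (NM_009963, mm10 chr2:92403647-92434069, minus strand, 12 exons). KO 3 alone lay outside the WT range. The difference was -0.18 (SE 0.218, 95% interval -0.68 to 0.33, limma adjusted p = 0.7161), and -0.02 without KO 3. Cry2 shares 295 exon bases with D930015M05Rik on the opposite strand, which held 0, 2 and 11 reads in the KO-labelled libraries and 0, 4 and 0 in the WT-labelled ones, against 156 to 280 reads for Cry2 over both groups. Cry1 made up 80.9% to 87.6% of the Cry TPM in the KO-labelled libraries and 79.9% to 83.0% in the WT-labelled ones. The sum of the Per transcripts was 2.78, 2.80 and 2.60 times that of the Cry transcripts in the KO-labelled libraries and 3.22, 3.22 and 3.21 times in the WT-labelled ones.

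Across the 8 genes, 4 differences were above 0 and 4 below, with a median of -0.04, beside a median of 0.00 over all tested genes, of which 49.5% were above 0. The activators lay on both sides, Npas2 above 0 and Arntl and Clock below. So did the Per genes and the Cry genes, in which the more abundant Per1 and the less abundant Cry2 were below 0 and their paralogs above.

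**Figure D3:**
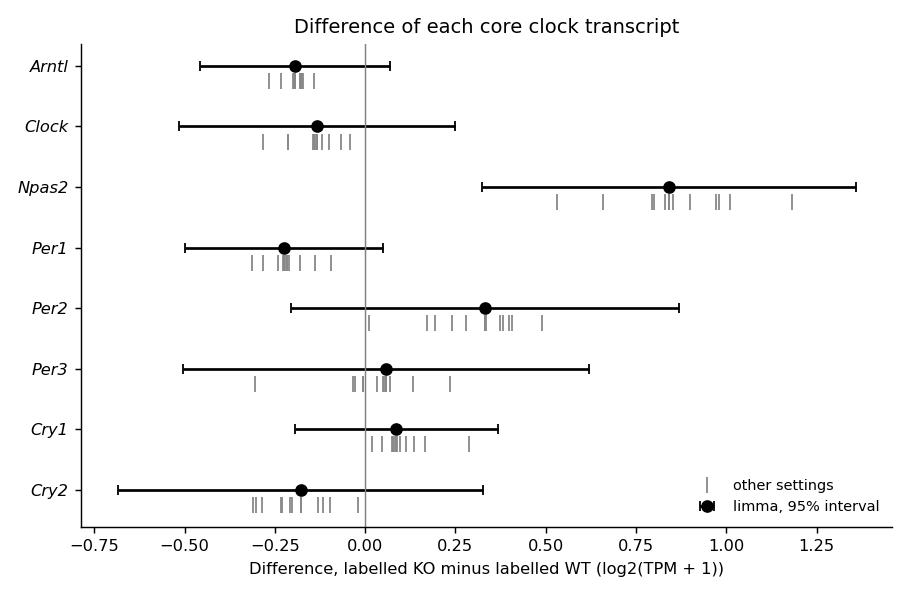
Difference of each core clock gene, labelled KO minus labelled WT, on the log2(TPM + 1) scale; points and bars are limma estimates with 95% intervals, and grey ticks below each are the values in the other settings. The interval of Npas2 (0.32 to 1.36) is the one that lies apart from 0, and the ticks of Per3 fall on both sides of it.

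The epithelial score, the mean log2(TPM + 1) of the 17 markers, was 7.31, 7.85 and 6.88 in the KO-labelled libraries 1, 2 and 3 and 6.75, 5.98 and 6.57 in the WT-labelled libraries 1, 2 and 3. The ranges did not overlap, so the score and the label cannot be told apart in these 6 libraries. With the score as a covariate the difference of Npas2 was 1.18 (SE 0.324, limma adjusted p = 0.9462), in a fit whose smallest adjusted p over all genes was 0.9367. With the covariate the difference of Cry1 was 0.29, that of Clock -0.28, that of Cry2 -0.30, that of Per1 -0.10, that of Arntl -0.18 and that of Per3 -0.31, and no gene passed. Among the pathway genes around the core, the covariate moved Kmt2a to -0.18, Ciart to -0.24, Nfil3 to 0.01, Crtc1 to 0.05 and Prkaa2 to -0.24. Over the 15 other settings, the covariate among them, Nr1d1 ran from 0.69 to 1.07 and Dbp from 0.46 to 0.69. Ddb1 ran from 0.32 to 0.36, Bhlhe40 from 0.27 to 0.40 and Fbxw7 from -0.57 to -0.35. Rora, Csnk1a1 and Crebbp kept their sign in those settings too, whereas Crtc3 ran from -0.27 to 0.12.

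**Figure D4:**
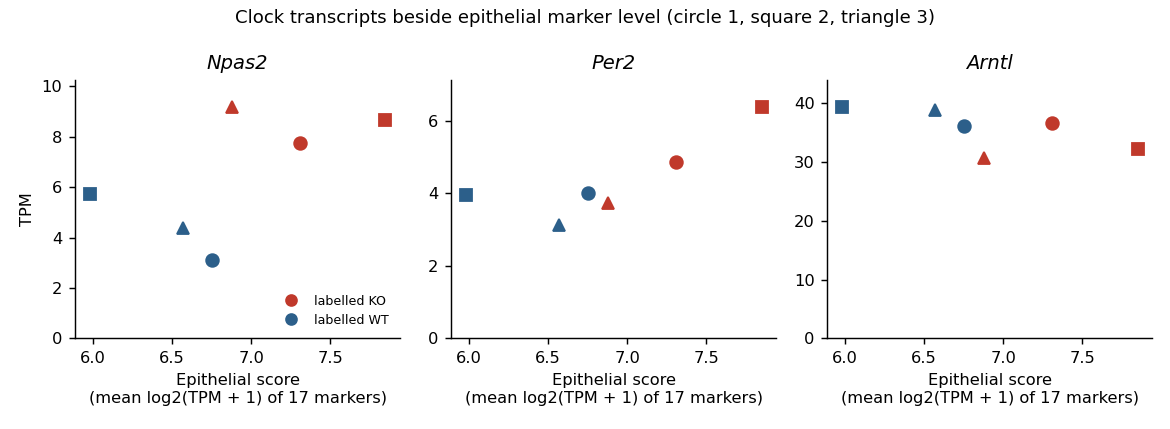
TPM of Npas2, Per2 and Arntl against the epithelial score of each library, labelled KO in red and labelled WT in blue. Every KO-labelled library lies to the right of every WT-labelled one. The highest Per2 value, 6.38 TPM, is in KO 2, which has the highest score. Per2 in KO 3 (3.73 TPM) lies below that in WT 1 (4.03 TPM), which has a lower score.

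Around the core, 43 other genes of the pathway were followed and 40 were tested. None passed at an adjusted p of 0.05, and 8 passed at an unadjusted p of 0.05 in limma (8 in voom), 4 higher and 4 lower, a share of 20% beside 15.6% of all genes (7.79% higher and 7.86% lower). Their median difference was -0.10, with 13 above 0 and 27 below. With the epithelial covariate the median was 0.02, with 22 above 0 and 18 below.

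In the linked loop, 3 of 4 genes were tested, with 2 above 0 and 1 below. Nr1d1, the gene of REV-ERBα and itself an E-box target, averaged 155.0 ± 13.9 TPM in the KO-labelled libraries and 86.2 ± 18.9 TPM in the WT-labelled ones (difference 0.86, limma adjusted p = 0.1295). Rora, which encodes an activating receptor for the same elements, averaged 154.5 ± 30.3 TPM in the KO-labelled libraries and 172.3 ± 14.3 TPM in the WT-labelled ones (-0.17, limma adjusted p = 0.6028), and its groups overlapped. Nr1d1 stood at 4.61 to 4.78 times Arntl in the KO-labelled libraries and 1.84 to 2.65 times in the WT-labelled ones. Exons shared with genes on the opposite strand were looked up for the core clock genes only, not for Nr1d1. Nr1d2, the gene of REV-ERBβ, overlapped between the groups, with a difference of 0.15 that ran from -0.04 to 0.33 over the other settings.

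Of the other E-box regulators, 1 of 4 tested genes was above 0 (median -0.22), against 3 of 4 with the covariate (median 0.24). Bhlhe40, a repressor that competes for E-boxes and is abundant in activated T cells, averaged 784.3 ± 52.2 TPM in the KO-labelled libraries and 623.8 ± 56.8 TPM in the WT-labelled ones (0.33, limma adjusted p = 0.2379). Ciart, a BMAL1-binding repressor, averaged 9.98 ± 1.15 TPM in the KO-labelled libraries and 13.8 ± 0.918 TPM in the WT-labelled ones (-0.44, limma adjusted p = 0.2495). Arntl2, the paralog of Arntl, was below the filter.

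Among the 4 output bZIP factors, which bind D-boxes, 3 were above 0 (median 0.41), and 2 with the covariate (median -0.02). Dbp, an activator driven by E-boxes, averaged 29.8 ± 4.70 TPM in the KO-labelled libraries and 19.6 ± 2.45 TPM in the WT-labelled ones (0.57, limma adjusted p = 0.1954). Nfil3, the D-box repressor, averaged 256.2 ± 12.7 TPM in the KO-labelled libraries and 320.1 ± 64.4 TPM in the WT-labelled ones (-0.30, limma adjusted p = 0.3858). Per3, whose promoter window holds 2 matches to the D-box letters, stood at a difference of 0.06 with no stable sign. Whether these factors act on Per3 was not tested.

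The machinery that sets the life of PER and CRY proteins held 6 tested genes, 1 above 0 and 5 below. Ddb1, an adaptor of the CUL4 ubiquitin ligase, averaged 174.8 ± 4.77 TPM in the KO-labelled libraries and 137.5 ± 2.19 TPM in the WT-labelled ones (0.34, limma adjusted p = 0.1622). Fbxw7, an F-box protein, averaged 6.37 ± 0.427 TPM in the KO-labelled libraries and 9.49 ± 1.13 TPM in the WT-labelled ones (-0.51, limma adjusted p = 0.2326).

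The 10 clock kinases, which phosphorylate PER, CRY and BMAL1, held no gene at an unadjusted p of 0.05, with 2 above 0 and 8 below, or 7 above and 3 below with the covariate. The 2 of smallest p were Csnk1a1, a casein kinase (0.15, limma adjusted p = 0.4648), and Prkaa2, a catalytic subunit of AMPK (0.40, limma adjusted p = 0.5075). Of the 7 coactivators and PER-complex genes, 2 were above 0 and 5 below (median -0.20, or -0.04 with the covariate). Kmt2a, a histone methyltransferase that works with CLOCK, averaged 42.5 ± 5.20 TPM in the KO-labelled libraries and 61.5 ± 8.04 TPM in the WT-labelled ones (-0.52, limma adjusted p = 0.1836). Crebbp, an acetyltransferase, averaged 31.6 ± 3.12 TPM in the KO-labelled libraries and 40.9 ± 4.48 TPM in the WT-labelled ones (-0.36, limma adjusted p = 0.2596). The 6 CREB and glucocorticoid inputs, routes by which Per1 is induced, held no gene at an unadjusted p of 0.05, with 2 above 0 and 4 below, or 4 above and 2 below with the covariate. The smallest p-values belonged to the CREB coactivators Crtc1 (-0.29, limma adjusted p = 0.5635) and Crtc3 (-0.13, limma adjusted p = 0.7598).

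**Figure D5:**
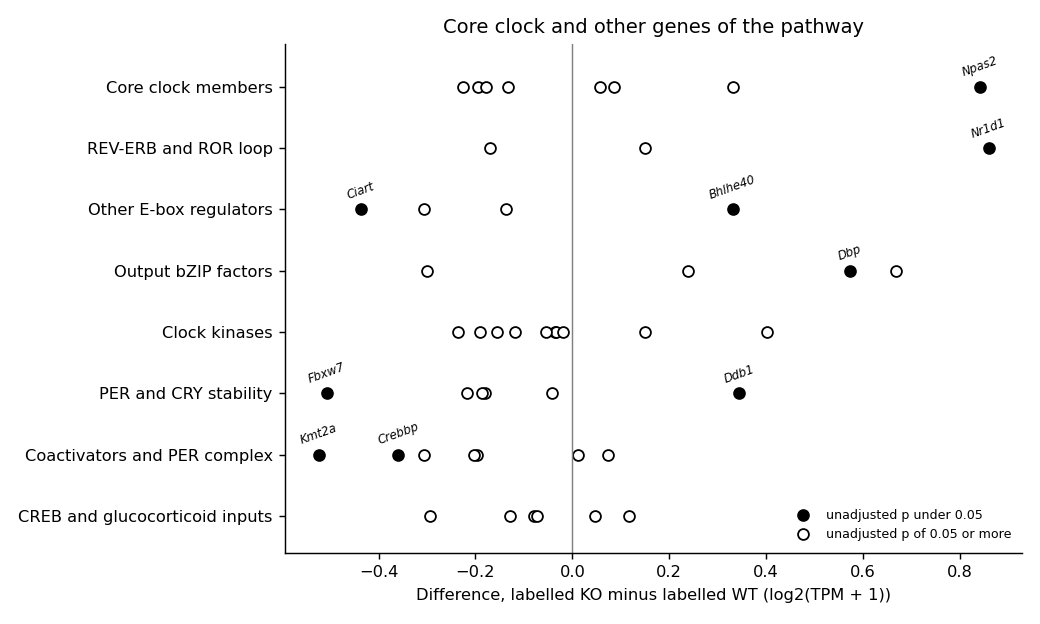
Difference of each tested gene, labelled KO minus labelled WT, on the log2(TPM + 1) scale, for the core clock genes and the 7 other lists of the pathway; filled points have an unadjusted limma p under 0.05 and are named. Npas2 (0.84) and Nr1d1 (0.86) lie at the right edge and Kmt2a (-0.52) and Fbxw7 (-0.51) at the left, and no point passed after adjustment.

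The genes whose pattern was most like that of Npas2 over the 6 libraries, out of 8283 tested genes with a mean of at least 10 TPM, were Cenpv (Pearson r = 0.9884), 1700012B07Rik (0.9681) and the chemokine gene Ccl20 (0.9664). Ccl20 was measured at 48.6, 59.5 and 65.8 TPM in the KO-labelled libraries and at 13.3, 23.7 and 26.8 TPM in the WT-labelled ones. Those most like Arntl were Camk2n1 (0.9882), the integrin gene Itgav (0.9851) and Mynn (0.9836). These correlations share the libraries and the contrast between the groups, and are given as a description.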

How the data were processed

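RNA-seq of colon Tregs was analysed in 3 libraries labelled KO and 3 labelled WT. The authors deposited TPM values, 1 row per RefSeq transcript with its length, per the file headers. Per the submitters' processing notes, STAR 2.5.3a, HOMER 4.9.1, Trim Galore 0.4.4 and FastQC 0.11.8 were used with mm10; no order or setting is stated. The kit kept strand, per the labels' protocols, but strand use in counting is not given in the sources used. TPM times length came out as whole multiples of 1 read: in each library 99.99% of values of up to 500 reads came within 0.1 of an integer. The reads recovered in this way gave the counting error, the chi-square per gene and the input of voom. They did not enter the limma fits on TPM.

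Groups were compared on log2(TPM + 1) by limma (moderated, two-sided, with a variance trend) over all 13211 genes with at least 1 TPM in at least 3 libraries, adjusted by Benjamini-Hochberg. Differences are labelled KO minus labelled WT, and the scale understates those of low genes such as Per3. Alternatives were pseudocounts of 0.1 and 5, no filter and a filter of 5 TPM, no trend, voom on the recovered reads with TMM, quantile normalization, an epithelial covariate, a replicate block and each library left out. R 4.3.3, limma 3.58.1, Python 3.11.15 and matplotlib 3.10.9 were used. The code of the fit was also run on simulated data. Their spread was set by hand, so that run does not measure power or error in these libraries.

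The members and all lists were chosen with earlier results of these data known. The genes named are the 8 members, Nr1d1 and Nr1d2, the 2 genes of smallest p in each pathway list, and the 3 genes most like Npas2 and Arntl. Foxp3, Arntl2, Gm45355 and D930015M05Rik were added. A few listed genes were taken out of the pathway lists and are in no list count. No libraries of a group agreed within sampling noise. The labels do not say that libraries came from separate animals, so p-values reflect only how these samples scatter, possibly for technical reasons. Promoter windows of 300 bases matched 7 of the 8 members.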

Additional observations from a re-analysis of the deposited data

How the results depend on the processing

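Of the 8 members, 0 passed in any of the 15 other settings, and 7 kept their sign in every setting in which they were tested; the filter of 5 TPM removed Per2 and Per3. Per3 turned to -0.006 with quantile normalization and -0.305 with the epithelial covariate, and to -0.033, -0.028 and -0.006 without KO 1, KO 2 and WT 2; the cause was not tested. Leaving out 1 library at a time gave 0.66 to 1.01 for Npas2, -0.27 to -0.14 for Arntl, -0.21 to -0.04 for Clock, -0.31 to -0.14 for Per1, 0.17 to 0.49 for Per2, -0.03 to 0.24 for Per3, 0.02 to 0.17 for Cry1 and -0.31 to -0.02 for Cry2. Over all genes, 0 passed in 14 of the 15 settings, and 14 passed without WT 1, none of them a member, so that the count without 1 library ran from 0 to 14. With the replicate number as a block the difference of Npas2 was 0.84 (limma adjusted p = 0.2648) and 0 genes passed. The deviations of same-numbered libraries from their group means correlated across genes at 0.004, -0.219 and -0.041. Those of differently numbered libraries correlated at -0.119 to 0.162. Deviations from means of 3 libraries constrain one another, so these values cannot show whether the numbers pair the libraries. Depth bounds Per3, Npas2, Per2 and Cry2 most, with counting errors of 5.50% to 9.59%.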
